A study of Mus musculus with 6 samples.

Results

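The subject here is a set of 9 genes that mark the epithelium of the developing molar, measured in bulk RNA-seq libraries of the mandibular first molar at P3.5 (3.5 days after birth). These are *Krt5*, *Krt14*, *Krt17*, *Cdh1*, *Epcam*, *Trp63*, *Sp6*, *Edar* and *Sox2*. The list was set by gene symbol, and all 9 were found among the 27506 genes in the count table. Libraries were made from tissue labelled dental pulp of C57BL/6 mice, 3 from *Ror2 fl/fl* controls and 3 from *Osr2-Cre;Ror2 fl/fl* mutants. Every library therefore came from mice with floxed *Ror2* alleles. The mutants also carried a Cre recombinase driven by *Osr2*, which acts in the dental mesenchyme and alveolar bone and spares the dental epithelium. Sample titles also carry the letters WW for control 1, OW for controls 2 and 3, and OR for the mutants. The sources used here do not explain these letters. Whether a library came from 1 animal or several is not given in the sources used here, so the p-values measure only the spread between these samples, which may be technical. *Ror2*, counted over all its exons, had 37.0 ± 1.03 CPM in control and 27.4 ± 0.961 CPM in mutant libraries (SD, n = 3; log2 fold change −0.43, adjusted p = 0.013 with edgeR, and 0.066 or 0.075 without control library 2 or 3), where CPM is the count per 1000000 counts of its library, after scaling between libraries.

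The enamel organ is the epithelial part of the tooth germ. Its inner layer becomes ameloblasts, which secrete enamel, and its lower rim extends as Hertwig's epithelial root sheath, a bilayer that guides root formation. Keratins 5, 14 and 17 are intermediate filament proteins of basal and appendage epithelia. E-cadherin (*Cdh1*) and *Epcam* are adhesion proteins of epithelial cells, p63 (*Trp63*) is the transcription factor that keeps stratified epithelia in a progenitor state, and *Sp6* (epiprofin) is a transcription factor needed for ameloblast formation. *Edar* is the receptor for ectodysplasin, a TNF family ligand that controls the growth and patterning of teeth, hair and sweat glands. *Sox2* marks epithelial stem cells of the incisor and the dental lamina. None of the 9 is a marker of the root sheath alone.

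Parts of *Krt5* and *Krt14* are shared with neighboring keratin genes, so a sequence that reads of 75 bases could not assign to either gene of a pair is shown first, for *Krt14*. In the transcripts of GENCODE M21 (mm10), 5.71% of the *Krt14* stretches of 75 bases also occurred in *Krt16*. Of the *Krt5* stretches, 7.77% occurred in other genes, with 4.71% in *Krt6a* and 2.59% on the opposite strand of *Gm44323*. The longest identical coding run of the *Krt14* pair covers 134 bases of exon 1 on the minus strand, at chr11:100207017-100207150 in *Krt14* and chr11:100248476-100248609 in *Krt16*. Capitals mark the identical run and lower case the 12 bases on either side.
Krt14: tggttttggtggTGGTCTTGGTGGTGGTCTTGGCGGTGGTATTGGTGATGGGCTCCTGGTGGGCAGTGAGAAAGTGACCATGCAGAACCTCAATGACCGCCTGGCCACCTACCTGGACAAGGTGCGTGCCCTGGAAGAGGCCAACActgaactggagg
Krt16: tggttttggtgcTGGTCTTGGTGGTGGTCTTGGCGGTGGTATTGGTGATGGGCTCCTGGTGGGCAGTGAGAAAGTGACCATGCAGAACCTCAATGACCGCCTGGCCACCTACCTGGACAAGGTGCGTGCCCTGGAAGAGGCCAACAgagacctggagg
The keratin partners *Krt16* and *Krt6a* were far less abundant than the markers. *Krt16* held 41 to 102 counts and *Krt6a* 1181 to 2753 counts per library, against at least 49861 for *Krt14* and 94744 for *Krt5*. The sum of *Krt14* and *Krt16* ran from 856 to 1342 CPM, which is within 2 CPM of *Krt14* alone in every library. *Sp6* stands apart, because 86.5% of its stretches lie on the opposite strand of the transcript *Gm11532*. Whether counting used strand is not given in the sources used here, so reads of the pair cannot be told apart, although *Gm11532* itself was given only 1328 to 1872 counts against at least 44975 for *Sp6*. *Krt17*, *Cdh1*, *Epcam*, *Trp63*, *Edar* and *Sox2* shared no stretch with another gene.

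These markers were not trace transcripts in the tissue labelled dental pulp. By mean CPM over the 6 libraries, *Krt5* ranked 23rd, *Krt14* 38th, *Sp6* 49th and *Krt17* 77th of all 27506 genes. *Trp63* (288th) and *Cdh1* (308th) followed, whereas *Epcam* (5561st), *Edar* (10547th) and *Sox2* (17251st) were lower. Divided by exon length, so that genes can be compared with each other, the control levels were 811 CPM per kb for *Krt5*, 560 for *Krt14*, 397 for *Krt17* and 235 for *Sp6*. They fell to 62.8 CPM per kb for *Cdh1*, 40.8 for *Trp63*, 10.8 for *Epcam*, 1.40 for *Edar* and 0.196 for *Sox2*. The order was the same in the mutant libraries, with 938, 740, 488, 265, 65.9, 33.1, 15.8, 2.65 and 0.166 CPM per kb. *Krt14* and *Krt17* had overlapping control ranges (487 to 670 and 317 to 513 CPM per kb), while every other pair of neighbors was separated within each group. The exon lengths combine all annotated isoforms, which lowers the per-kb level of genes with alternative ends such as *Trp63*.

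Products of the enamel organ were the most abundant transcripts of the same libraries. Amelogenin (*Amelx*), ameloblastin (*Ambn*) and enamelin (*Enam*), the structural proteins of the enamel matrix, ranked 1st, 2nd and 5th of all genes by count. Together they took 17.3 to 18.9% of the counts in control and 18.6 to 23.7% in mutant libraries, with a counting error of at most 0.00888 percentage points on either side for a single gene in a library (95% Wilson interval). The 9 epithelial markers together took 0.418 to 0.597% in control and 0.535 to 0.644% in mutant libraries. The label dental pulp thus covers libraries with ample dental epithelial RNA. Mesenchyme was present as well, since 12 genes of dental mesenchyme and odontoblasts, such as *Col1a1* and *Dspp*, summed to 1.63 to 4.49% in control and 1.45 to 3.45% in mutant libraries. The plot of count shares shows these sums side by side.

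**Figure D1:**
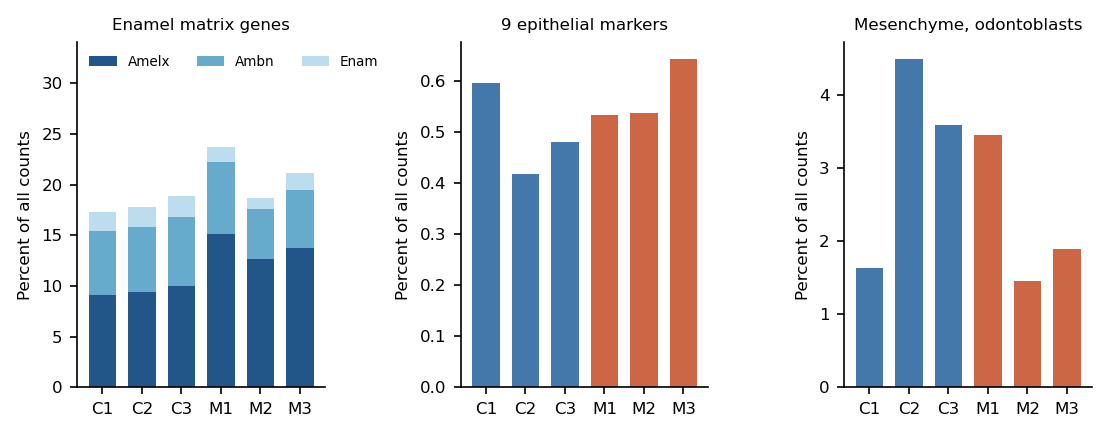
Percent of all estimated counts (y axis, from 0, with a scale of its own in each panel) in each control (C1 to C3) and mutant (M1 to M3) library, for the enamel matrix genes *Amelx*, *Ambn* and *Enam* stacked (left), the 9 epithelial markers summed (middle) and 12 mesenchyme and odontoblast genes summed (right). The enamel genes took 17.3 to 23.7% of counts, and the library with the lowest marker share, C2 (0.418%), had the highest mesenchyme share (4.49%).

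Libraries were next compared between genotypes, to ask whether the epithelial markers differed when *Ror2* was deleted in the neighboring mesenchyme. They held 56134770 to 62628940 estimated counts, and 19330 genes passed the filter on low counts, all 9 markers among them. With edgeR's quasi-likelihood test and an adjusted p below 0.05 as the threshold, 20.2% of the genes tested were called, 10.4% as higher and 9.84% as lower in the mutants. Of the 9 markers, only *Edar* was called, as higher, and none was called lower. That is 1 of 9 against the background of 20.2%. Fitted log2 fold changes were above 0 for 7 markers and below 0 for 2, with a median of 0.21 beside 0.01 for all genes tested. With an offset for GC content the medians were 0.0089 and −0.0088, so the shift of the markers against all genes depended on this choice. In bulk tissue, fewer cells of a type and less RNA per cell cannot be told apart.

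**Figure D2:**
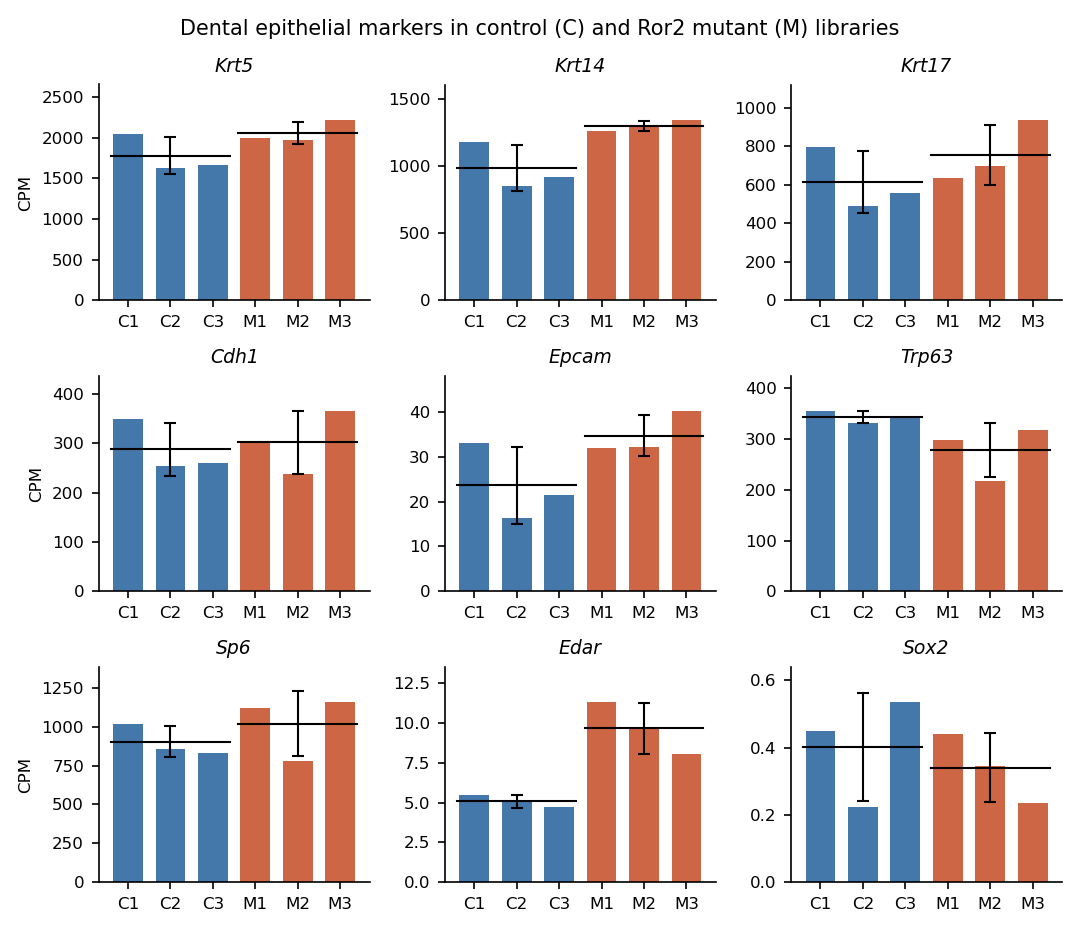
CPM (y axis, from 0, a scale of its own for each gene) of the 9 markers in control libraries C1 to C3 (blue) and mutant libraries M1 to M3 (orange). Bars are libraries, horizontal lines group means and error bars 1 SD (n = 3). All *Edar* mutant bars (8.07 to 11.3 CPM) stand above all control bars (4.70 to 5.47 CPM), whereas most other markers overlap.

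Among the receptors and signals, *Edar* (ENSMUSG00000003227.4, chr10:58600789-58675654, minus strand) had 5.47, 5.06 and 4.70 CPM in control libraries 1 to 3. The mutant libraries had 11.3, 9.62 and 8.07 CPM. All mutant values lay above all control values, and the lowest of them exceeded the highest control by more than the range of the controls. The means were 5.07 ± 0.385 and 9.65 ± 1.60 CPM (SD, n = 3), a 1.90-fold difference. The log2 fold change was 0.93 with a standard error of 0.16 (95% interval 0.57 to 1.28; adjusted p = 0.0079, edgeR). The values rest on 290 to 666 counts per library. Beside it, 14 genes of keratinized oral or skin epithelium, which can also express *Edar*, summed to 45.3 to 61.3 CPM in control and 62.4 to 67.1 CPM in mutant libraries, and their part in the *Edar* difference was not tested. Without control library 3 the fold change stayed at 0.86 on the log2 scale, with an adjusted p of 0.053.

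The keratins came next. *Krt14* (ENSMUSG00000045545.8, chr11:100203162-100207548, minus strand) had 1178, 855 and 921 CPM in the controls and 1264, 1297 and 1341 CPM in the mutants. The groups did not overlap, and control library 1 was the control nearest to the mutants. The log2 fold change of 0.40 (standard error 0.15, 95% interval 0.06 to 0.75) missed the threshold after adjustment (adjusted p = 0.088, edgeR). DESeq2's Wald test gave it an adjusted p of 0.039, and an offset for GC content lowered the fold change to 0.19. *Krt14* has a GC content of 57.2%. Its partner in basal cells, *Krt5* (ENSMUSG00000061527.7, chr15:101707070-101712898, minus strand), had 2049, 1625 and 1670 CPM in the controls and 2000, 1971 and 2213 CPM in the mutants. The groups overlapped because control library 1 stood at the level of the mutants, and the log2 fold change was 0.21 (95% interval −0.12 to 0.54; adjusted p = 0.31), or 0.0050 with the GC offset. *Krt17* (ENSMUSG00000035557.9, chr11:100256217-100261029, minus strand), a keratin of hair and tooth appendages, had 796, 491 and 559 CPM in the controls and 638, 697 and 934 CPM in the mutants. Its log2 fold change was 0.30 (95% interval −0.20 to 0.79; adjusted p = 0.34), or 0.08 with the GC offset, with overlapping groups and a wider spread within each group, relative to its level, than *Krt5* or *Krt14*.

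Adhesion genes overlapped between the genotypes. *Cdh1* (ENSMUSG00000000303.12, chr8:106603351-106670246, plus strand) had 350, 253 and 259 CPM in the controls, against 303, 237 and 364 CPM in the mutants. The highest and the lowest value were both in the mutants, and the log2 fold change was 0.07 (95% interval −0.36 to 0.50; adjusted p = 0.81). *Epcam* (ENSMUSG00000045394.9, chr17:87635979-87651129, plus strand) had 33.1, 16.4 and 21.4 CPM in the controls and 31.9, 32.1 and 40.0 CPM in the mutants. Control library 1 again fell among the mutants, and the log2 fold change of 0.55 (95% interval 0.01 to 1.09) had an adjusted p of 0.12. It was 0.87 without control library 1 (adjusted p = 0.026) and 0.34 without control library 2 (adjusted p = 0.33).

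Transcription factors did not pass the threshold either. *Trp63* (ENSMUSG00000022510.14, chr16:25683763-25892102, plus strand) had 354, 331 and 343 CPM in the controls, against 299, 217 and 318 CPM in the mutants. It was the only marker whose mutant values all lay below the controls, with a log2 fold change of −0.30 (95% interval −0.65 to 0.05; adjusted p = 0.18). Its GC content is 44.2%, the lowest of the 9 markers, and with an offset for GC content the fold change was −0.15. *Sp6* (ENSMUSG00000038560.7, chr11:97013394-97024734, plus strand) had 1018, 858 and 832 CPM in the controls and 1121, 779 and 1154 CPM in the mutants. Mutant library 2 was the lowest of all 6 and the other mutants the highest, with a log2 fold change of 0.17 (95% interval −0.23 to 0.58; adjusted p = 0.50). *Sox2* (ENSMUSG00000074637.7, chr3:34650405-34652461, plus strand) was the least abundant marker, with 29, 13 and 33 counts in the controls and 26, 20 and 14 counts in the mutants. At this depth its interval of −1.20 to 0.72 (log2 fold change −0.24, adjusted p = 0.70) spans both a large fall and a smaller rise.

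**Figure D3:**
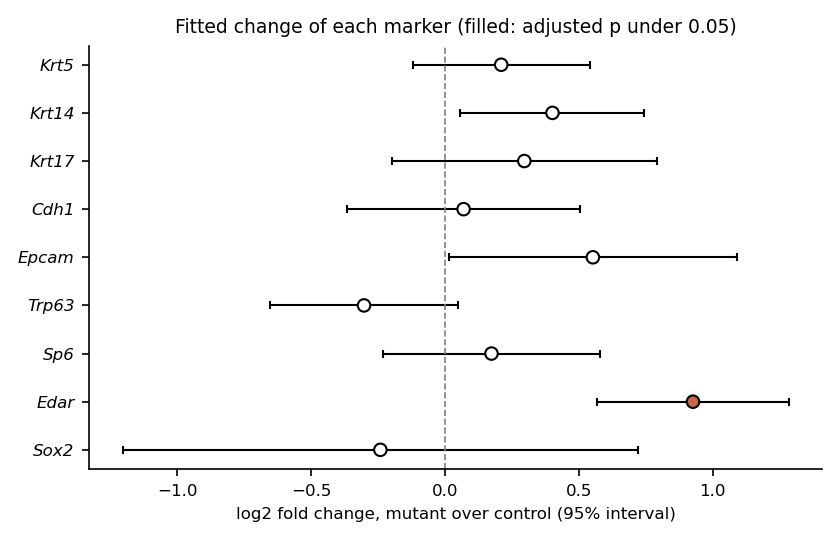
Fitted log2 fold change (x axis, mutant over control) of the 9 markers (y axis) with 95% intervals from edgeR's fit of 3 against 3 libraries. The filled point, *Edar* (0.93), is the marker with an adjusted p below 0.05, and the *Sox2* interval (−1.20 to 0.72) is the widest.

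Groups without overlap were common in these libraries and made up 44.7% of the genes tested, with 22.6% higher in every mutant than in every control and 22.1% lower. Of the 9 markers, *Krt14* and *Edar* were above and *Trp63* below. Summed over the 9 markers, the level was 4943 ± 733 CPM in control and 5761 ± 571 CPM in mutant libraries (SD, n = 3). The difference of the log2 sums was 0.23, against a pooled SD of 0.18. Without the 3 keratins it was 0.06. These sums mostly follow the abundant markers. Control means were 1782 CPM for *Krt5*, 985 for *Krt14* and 902 for *Sp6*, the largest left without the keratins. They were 5.07 CPM for *Edar* and 0.403 for *Sox2*.

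Control library 1 was the highest control for 8 of the 9 markers and control library 2 the lowest for 7, while mutant library 3 was the highest mutant for 7. The lowest mutant differed between markers, and was library 2 for 4, library 1 for 3 and library 3 for 2 of them. *Col1a1*, the main collagen of bone and dentin, had 11084, 37132 and 26565 CPM in controls 1 to 3 and 28301, 9883 and 13010 CPM in mutants 1 to 3. *Dspp*, the dentin protein of odontoblasts, had 2909, 7979 and 5218 CPM in the controls and 6396, 2515 and 4151 CPM in the mutants. Control library 1 was thus the lowest control for these 2 genes and mutant library 2 the lowest mutant. Other genes of the mesenchyme and odontoblast list differed from them. *Col3a1* and *Vim* were also lowest in control library 1 among the controls, but among the mutants they were lowest in library 3. *Dmp1* was highest in control library 1, with 64.8 CPM against 61.1 and 61.2 CPM in controls 2 and 3. *Col1a1* and *Dspp* overlapped between genotypes, and the part of tissue composition in the marker levels was not tested.

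**Figure D4:**
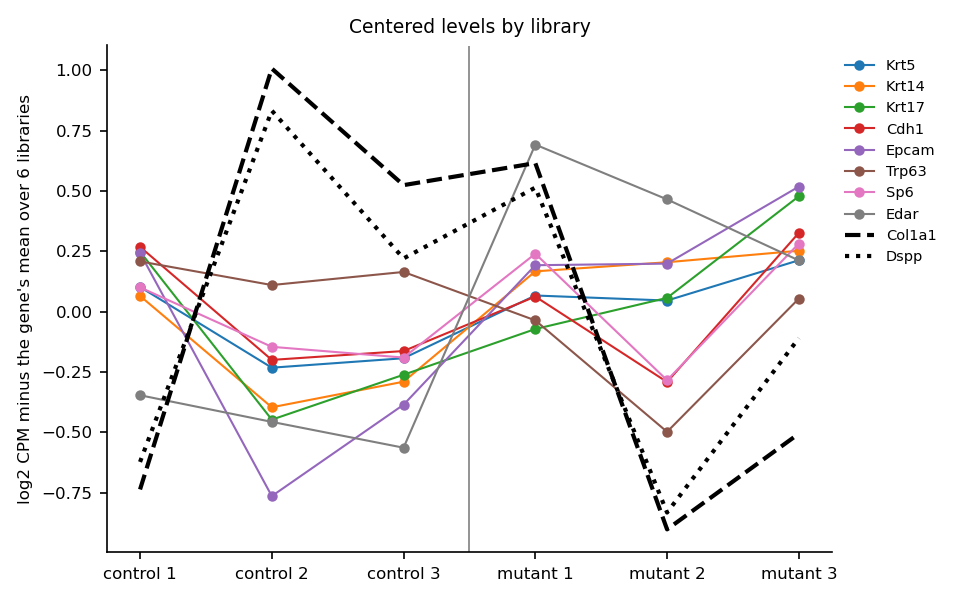
Log2 CPM of 8 markers (colored lines with points) and of *Col1a1* (dashed) and *Dspp* (dotted) in each library, centered on each gene's mean over the 6 libraries. *Sox2*, with 13 to 33 counts, is left out. Control 1 lies above controls 2 and 3 for the 8 markers drawn and below them for *Col1a1* and *Dspp*.

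Ratios between markers do not depend on the amount of epithelium if all are made by the same cells, and were computed as a description after the values had been seen. Relative to the mean log2 CPM of the other 8 markers, *Trp63* stood at 1.50, 1.93 and 1.77 in the controls and at 1.18, 0.87 and 1.25 in the mutants. The groups did not overlap, and their means differed by −0.63. *Edar* relative to the other 8 was higher in the mutants by 0.75 and *Krt14* by 0.19, also without overlap. The log2 ratio of *Krt14* to *Trp63* was 1.74, 1.37 and 1.42 in the controls and 2.08, 2.58 and 2.08 in the mutants. These ratios carry no GC offset. With it, the fitted log2 fold changes of *Krt14* and *Trp63* shrank from 0.40 and −0.30 to 0.19 and −0.15. Of the 36 marker pairs, 15 had ratios that did not overlap between the groups, and *Trp63* and *Edar* each took part in 6 of them. As 44.7% of single genes did not overlap either, and ratios of other genes were not counted, this is no result about the markers.

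Genes with a library profile most like the mean profile of the 9 markers were sought among 14928 genes outside the lists. Likeness was the root mean square difference of centered log2 CPM over the 6 libraries, with a median of 0.299 over these genes. The nearest were *Fam83f* (0.026), *Gm14038* (0.041), *Srpx* (0.049), *Ddost* (0.052) and *Bcl11a* (0.056). *Fam83f* had 20.3, 14.9 and 16.5 CPM in the controls and 20.5, 18.2 and 21.8 CPM in the mutants, the same order of libraries within each group as *Cdh1*.

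Other epithelial genes were then examined in 7 lists with 78 genes, of which 76 passed the filter (*Cldn3* and *Isl1* did not). Of these, 9 were called higher and 2 lower in the mutants, which is 14.5% of those tested beside 20.2% of all genes. The median log2 fold change was 0.11, and 51 of the 76 were above 0. None of the 76 was called without control library 2, where 910 of 19896 genes were called over all genes tested. The same held without control library 3, where 872 of 19867 were called. With an offset for GC content 7 of the list genes were called, beside 2850 of all 19330 genes. Both lower calls, *Ehf* and *Chuk*, were lost with the GC offset, and among the higher calls *Krt18* (0.66, adjusted p = 0.055), *Pkp3* (0.05, adjusted p = 0.68), *Spint1* (0.12, adjusted p = 0.45) and *Rela* (0.08, adjusted p = 0.51) were lost with it, given as log2 fold changes. These lists were chosen by function with earlier results of these data known. The same 20.2% is the background for the count called in each single list below.

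Of 8 other keratins, only *Krt18*, a keratin of simple epithelia, was called. It rose from 2.83 ± 0.458 to 5.13 ± 0.775 CPM (log2 fold change 0.86, adjusted p = 0.020). The most abundant of the list were *Krt15* (62.1 ± 2.77 in control, 46.0 ± 20.8 CPM in mutant), *Krt6a* (32.9 ± 9.41 and 25.0 ± 5.21 CPM) and *Krt7* (27.7 ± 5.99 and 35.0 ± 5.02 CPM), and none of these passed the test. *Krt15*, a basal keratin, had 32.5, 69.9 and 35.7 CPM in the 3 mutants against 60.2 to 65.2 CPM in the controls. Mutant library 2 thus stood apart from the other mutants for *Krt15*.

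Among 18 tested junction genes, 3 rose and none fell, beside 20.2% of all genes called in either direction. P-cadherin (*Cdh3*), the classical cadherin of basal epithelium, rose from 124 ± 10.3 to 179 ± 19.6 CPM (log2 fold change 0.53, adjusted p = 0.020), whereas *Cdh1* did not pass the test. Tricellulin (*Marveld2*) rose from 5.02 ± 2.11 to 10.7 ± 0.842 CPM (log2 fold change 1.09, adjusted p = 0.025). Plakophilin 3 (*Pkp3*), a desmosomal plaque protein, rose from 73.7 ± 4.39 to 90.1 ± 1.05 CPM (log2 fold change 0.29, adjusted p = 0.048). The most abundant junction genes did not pass, with log2 fold changes of −0.10 for desmoplakin (*Dsp*), 0.03 for *Perp* and −0.13 for *Cldn1*.

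None of 9 hemidesmosome and basement membrane genes, which anchor basal epithelium, was called with edgeR. *Lama3* and *Dst*, among the most abundant of them, had log2 fold changes of −0.41 and −0.29. Of 11 general epithelial regulators, *Klf5* rose from 27.8 ± 0.644 to 39.2 ± 7.37 CPM (log2 fold change 0.50, adjusted p = 0.041) and *Ehf* fell from 2.44 ± 0.258 to 1.46 ± 0.249 CPM (log2 fold change −0.74, adjusted p = 0.042; −0.52 and 0.14 with the GC offset). *Esrp1*, which directs epithelial splicing, did not pass (log2 fold change 0.29, adjusted p = 0.056). Of 7 genes of epithelial proteases, their inhibitors and trafficking, the protease inhibitor *Spint1* rose from 32.4 ± 1.70 to 40.6 ± 3.33 CPM (log2 fold change 0.33, adjusted p = 0.049). *Sfn*, *Spint2* and *St14* did not pass, with log2 fold changes of 0.01, 0.10 and 0.42.

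Among dental epithelial regulators and signals, 9 genes were tested and 2 rose, beside 20.2% of all genes called in either direction. *Tbx1*, a T-box factor of dental epithelial progenitors, rose from 29.4 ± 3.79 to 49.7 ± 10.3 CPM (log2 fold change 0.76, adjusted p = 0.018). *Foxi3*, a forkhead factor of ectodermal appendages that acts with ectodysplasin signaling, rose from 6.85 ± 1.15 to 13.0 ± 2.33 CPM (log2 fold change 0.92, adjusted p = 0.013). *Foxi3* had 8.18, 6.12 and 6.25 CPM in the controls and 14.0, 10.3 and 14.6 CPM in the mutants, without overlap. *Sox21* and *Shh*, among the most abundant of the list, did not pass, with log2 fold changes of −0.48 (adjusted p = 0.066) and 0.48 (adjusted p = 0.13).

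Since *Edar* was the marker called, 14 other genes of ectodysplasin signaling, from the ligand *Eda* to the NF-κB subunits, were examined. *Rela*, the transactivating NF-κB subunit, rose from 40.0 ± 1.31 to 49.8 ± 0.289 CPM (log2 fold change 0.32, adjusted p = 0.031). *Chuk*, which encodes the kinase IKKα, fell from 27.5 ± 0.669 to 22.0 ± 0.892 CPM (log2 fold change −0.33, adjusted p = 0.038; −0.07 and 0.61 with the GC offset). The other 12 did not pass, among them the most abundant, the receptor *Tnfrsf19* (0.13) and the signaling proteins *Tab2* (0.09) and *Map3k7* (−0.23), in log2 fold changes. The whole list ran from −0.61 to 0.44, below the 0.93 of *Edar*.

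**Figure D5:**
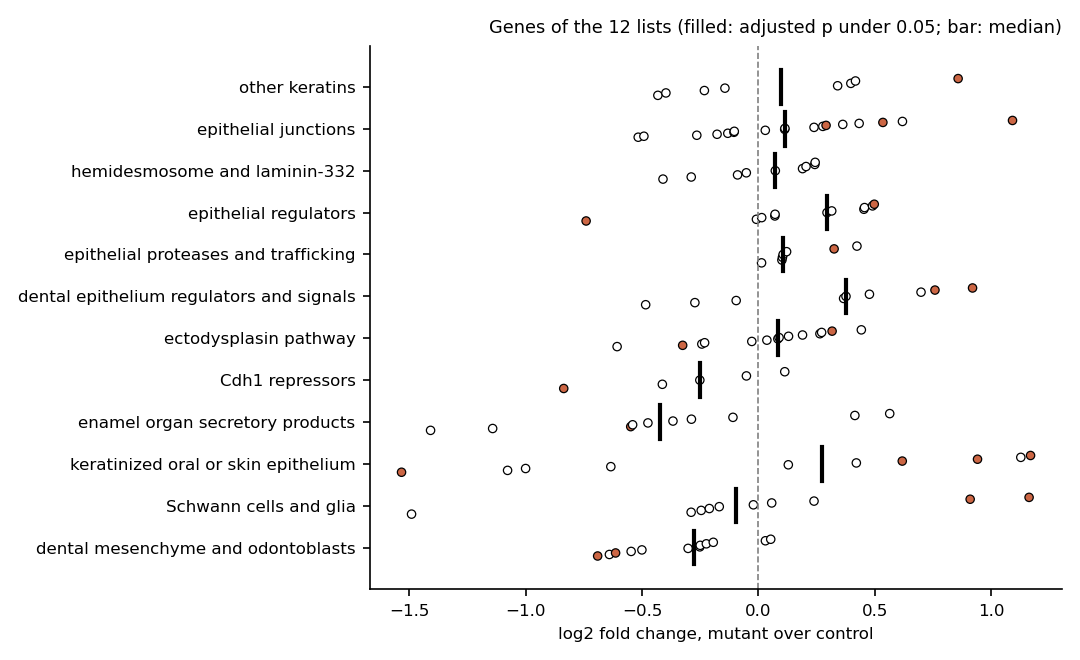
Log2 fold change (x axis, mutant over control) of every tested gene in 12 lists (y axis). Points are genes, filled where the adjusted p is below 0.05, and vertical bars are list medians, which run from −0.42 (enamel products) to 0.38 (dental epithelium regulators and signals).

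Transcriptional repressors of *Cdh1*, which are typical of mesenchymal cells, were also listed. Of 5, *Zeb2* fell from 70.8 ± 12.1 to 39.6 ± 8.04 CPM (log2 fold change −0.84, adjusted p = 0.017), and *Snai2* (−0.05) and *Twist1* (−0.25) did not pass. Of 12 mesenchyme and odontoblast genes, *Col3a1* (−0.61, adjusted p = 0.041) and *Prrx1* (−0.69, adjusted p = 0.018) fell, and 10 of the 12 had fitted changes below 0. Their list median was −0.28, beside 0.01 for all genes tested. The calls of *Col3a1* and *Prrx1* held in 11 and 16 of 19 alternative settings. These 2 calls of 12 genes stand beside 20.2% of all genes tested that were called, 9.84% as lower. *Col3a1* and *Prrx1* went down while *Edar* went up, and their part in the *Edar* difference was not tested.

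Of 10 enamel organ products, *Odam*, a protein of maturing ameloblasts and junctional epithelium, fell from 204 ± 6.86 to 139 ± 11.1 CPM (log2 fold change −0.55, adjusted p = 0.012; −0.29 and 0.077 with the GC offset). *Amelx*, *Ambn* and *Enam* did not pass, with log2 fold changes of 0.56 (adjusted p = 0.085), −0.11 and −0.47. *Amelx* alone took 9.15 to 9.97% of counts in control and 12.6 to 15.1% in mutant libraries. When the 3 enamel genes were left out before scaling, the log2 fold change of *Edar* was again 0.93 and that of *Krt14* 0.40.

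Epithelium or nerve from outside the tooth germ could add to such a dissection, and marker genes of both were counted. Of 14 genes of keratinized oral or skin epithelium, 10 passed the filter, and *Flg* and *Sprr1b* had at most 3 counts in every library. *Krt10* (log2 fold change 0.62, adjusted p = 0.039; 0.48 and 0.092 with the GC offset), *Lor* (1.17, adjusted p = 0.010) and *Sbsn* (0.94, adjusted p = 0.012) rose, and *Krt4* (−1.53, adjusted p = 0.049), a keratin of oral lining epithelium, fell. *Dmkn*, the most abundant of the list, had 22.5 ± 4.47 and 24.6 ± 4.21 CPM and did not pass. Of 10 Schwann cell genes, 2 rose and none fell, which is near the 20.2% of all genes called in either direction. *S100b* (0.91, adjusted p = 0.015) was among those that rose, and the more abundant *Mbp* (−0.02) and *Erbb3* (0.24) did not pass. All 14 keratinized genes together had 45.3 to 61.3 CPM in control and 62.4 to 67.1 CPM in mutant libraries. The part of outside epithelium or nerve in the marker levels was not tested.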

How the data were processed

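RNA from P3.5 mandibular first molars was sequenced as single-end reads of 75 cycles. The paper's methods name TopHat and mm10, and the submitters' processing notes name STAR 2.6.1d, Partek and mm10. The program that divided reads between genes, its annotation and its use of strand are not given in the sources used here. The authors deposited estimated counts per gene without normalization, of which 47.8% had no fractional part (tolerance 0), and these were rounded. They also deposited a normalized signal table of 22061 genes, in which a value is the count plus 1 times a factor per library. It was used as an alternative. Another 6 columns of the tables match no sample label and were not used.

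Groups follow the genotype in the labels. In R 4.3.3, edgeR 4.0.16 scaled libraries (TMM), kept genes by filterByExpr and compared the groups of 3 by its quasi-likelihood test without a block, with Benjamini-Hochberg adjustment over the 19330 genes tested and a threshold of 0.05. The script was tested on simulated data. The estimated counts gave 56134770 to 62628940 per library. Counting error is small for all markers but *Sox2*, and intervals of shares cover counting error only. The biological coefficient of variation was 18.7%. Replicates differed by more than sampling noise. Coordinates, exon lengths, GC contents and transcript sequences are from GENCODE M21 on mm10, which covered all 27506 genes.

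The 9 markers and the lists were chosen with earlier results of these data known. Genes named from the lists are the 3 with the highest mean CPM and those called, where a list had 5 or fewer, except some genes and 1 shared sequence that are not reported here. Genes most like the markers are the 5 nearest with a mean CPM of at least 1. Alternatives were DESeq2 1.42.0, limma 3.58.1 (voom with quality weights, and its trend method applied to log2 normalized signal plus 1 or 0.1), other scalings and filters, a replicate block, a GC offset and leaving out each library. An offset for GC and length, sums with genes sharing sequence, and leaving out *Amelx*, *Ambn* and *Enam* were chosen after seeing the data.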

Additional observations from a re-analysis of the deposited data

How the results depend on the processing

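*Edar* was called as higher in 18 of 19 alternatives, with log2 fold changes of 0.80 to 1.04 and adjusted p-values of 1.6e-05 to 0.053, and was missed without control library 3. The count of markers called, 1, became 2 with DESeq2 (*Krt14* and *Edar*) and 3 with voom and quality weights (*Krt14*, *Epcam* and *Edar*). It ran from 0 to 3 when a library was left out, with 3 without control library 1 and 0 without control library 3. The count over all genes, 3906, became 6341 with voom and 872 to 5001 when a library was left out. It was 3390 without the filter, 2850 with the GC offset and 2928 with the GC and length offset. Of genes in the 7 epithelial lists, 11 were called, against 26 with voom, 6 without the filter, 7 with the GC offset, 7 with the GC and length offset, and 0 to 17 when a library was left out (0 without control library 2 or 3, 17 without mutant library 2). The 2 lower calls among them, *Ehf* and *Chuk*, held in 9 and 8 of 19 alternatives.

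Sample index numbers are shared by the groups, and the paper's methods speak of 3 pairs of samples. Same-numbered libraries did not deviate together (correlations of −0.10, −0.08 and −0.0038). With groups of 3, such correlations cannot show whether the samples were paired. With the replicate block, 2013 genes and 5 list genes were called and *Edar* had an adjusted p of 0.019. The call of *Ror2* was lost (adjusted p = 0.058), and none of the 5 list genes was lower. Other numbers in the sample titles form separate series in controls and mutants, and their meaning is not given. Any difference in handling that followed the groups cannot be told apart from genotype.

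Fitted changes turned sign for markers near 0 and past no threshold. *Sp6* went to −0.040 with the GC offset and −0.021 with the GC and length offset, under which *Krt5* went to −0.042. When a library was left out, *Cdh1* ran from −0.093 (without mutant library 3; also below 0 without control library 2 or 3) to 0.23, and *Sox2* from −0.53 to 0.0047 (without control library 3). The difference of the summed log2 CPM ran from 0.15 to 0.34, and the median log2 fold change of the markers from 0.11 to 0.34, when a library was left out. That median fell to 0.0089 with the GC offset and 0.0074 with the GC and length offset. *Krt14* and *Trp63* shrank to 0.13 and −0.05 with the GC and length offset. The causes were not tested. *Sox2* was not tested under the filter of 1 CPM in 3 libraries, and its 13 to 33 counts limit what can be seen.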
